A study of Mus musculus with 20 samples.

Results

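Klotho, its paralogue beta-Klotho, the fibroblast growth factor (FGF) receptors and the ligand FGF2 were examined as 7 genes listed by name, out of 54838 genes counted: Kl, Klb, Fgfr1, Fgfr2, Fgfr3, Fgfr4 and Fgf2. The listing used no measured value, but Kl is one of the genes that the study itself picked out from these same libraries, so its difference between the lines is no independent evidence. Ovaries of 20 female mice aged 77 days were sequenced by 3' mRNA-Seq, with 1 library per animal. There were 5 libraries for each of the 2 lines, ctrl and FL1, in each of the 2 stages, estrus and diestrus. FL1 is the Dummerstorf line bred over many generations for large and heavy litters, and ctrl, whose genotype the labels give as WT, is the unselected line from the same outbred founders. The labels name no engineered allele and no agent for any group, and because both lines are closed populations of unlike animals rather than an inbred strain with a single change, all that separates the lines can add to a difference between them. The libraries held 5991223 to 10352718 counts, with a median of 6957533. Levels are given as CPM, the usual scaling of counts to library size, with TMM-adjusted library totals, and reads from the 3' end do not grow with transcript length. Levels were tested between groups within a gene and not between genes. The 5 other FGF ligands named by their mean level were ranked on this scale without a test.

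FGFs signal through receptor tyrosine kinases, of which Fgfr1 to Fgfr4 encode the signalling members, and most of the ligands act near their source with heparan sulfate as a co-factor. The endocrine FGFs bind heparan sulfate poorly and need Klotho (FGF23) or beta-Klotho (FGF15 and FGF21) as a co-receptor beside an FGF receptor. Klotho is best known from the kidney and from the early ageing of mice that lack it, and in the ovary FGF2 and the FGFs made by theca and granulosa cells act on follicle growth and on the vessels of the corpus luteum.

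Of the 7 genes, Kl and Fgf2 were the ones that differed between the lines, in opposite directions. Reads from the 3' end do not show which start of transcription was used. The windows around the annotated starts of Kl and Fgf2 are given here because these are the genes that differed. They were copied from the RefSeq annotation of GRCm38.p6, which held a window of 300 bases (250 before and 50 after the start) for 6 of the 7 genes, and capitals mark each GC box, GGGCGG on either strand. The Kl window is chr5:150952357-150952656 and the Fgf2 window is chr3:37348403-37348702, both on the plus strand.
Kl: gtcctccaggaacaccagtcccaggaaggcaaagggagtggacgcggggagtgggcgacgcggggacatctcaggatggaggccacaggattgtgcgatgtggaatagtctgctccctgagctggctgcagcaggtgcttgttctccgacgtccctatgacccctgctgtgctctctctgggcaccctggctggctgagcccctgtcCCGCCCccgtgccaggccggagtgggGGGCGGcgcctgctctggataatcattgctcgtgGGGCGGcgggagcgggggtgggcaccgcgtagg
Fgf2: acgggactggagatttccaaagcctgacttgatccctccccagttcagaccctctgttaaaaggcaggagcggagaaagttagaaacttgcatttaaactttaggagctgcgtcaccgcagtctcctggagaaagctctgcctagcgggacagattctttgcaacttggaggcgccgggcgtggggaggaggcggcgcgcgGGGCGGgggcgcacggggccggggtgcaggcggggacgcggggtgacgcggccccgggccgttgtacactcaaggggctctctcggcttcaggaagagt
The Kl window held 3 GC boxes, 19 CG dinucleotides and 67.3% G and C, and the Fgf2 window held 1 GC box, 24 CG dinucleotides and 62.7% G and C. Over all 32544 windows of this length, 35.9% held a GC box, the median number of CG dinucleotides was 7 and the median share of G and C was 53.0%. Neither window held an E-box (CACGTG, in 7.17% of all windows), a CCAAT box (CCAAT, 37.4%), a TATA box (TATAAA, 13.6%) or a nuclear receptor half-site (AGGTCA, 16.2%), each searched on both strands. GC boxes were also held by the windows of Fgfr4 (4) and Fgfr3 (4 and 2), which were not called between the lines. The windows of Fgfr2 and Klb held none. These letters describe the windows and were not tied to the counts by any test.

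Kl encodes Klotho, the co-receptor for FGF23, and lies on chromosome 5 at 150952607 to 150993817 (GRCm38, plus strand), with no exon of another gene over its own. In estrus, the 5 ctrl libraries gave 4.02, 1.82, 4.69, 4.61 and 2.81 CPM. The FL1 libraries gave 10.1, 5.70, 16.6, 8.12 and 13.8 CPM. Every FL1 ovary in estrus was above every ctrl ovary, and the lowest FL1 library still lay above the highest ctrl library. In diestrus, the ctrl libraries gave 6.70, 1.37, 2.70, 0.329 and 2.46 CPM. The FL1 libraries gave 9.30, 14.3, 10.7, 6.79 and 6.33 CPM. Here the groups met at a single point, since ctrl replicate 1 was above FL1 replicate 5, and the other 4 ctrl libraries were below all 5 FL1 libraries. The counts behind these values were low, between 2 and 158 per library.

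The Kl transcript was therefore 2.98-fold as abundant in FL1 as in ctrl in estrus, with a 95% interval of 1.84 to 4.84 (log2FC 1.58, SE 0.33, with an adjusted p of 0.0219 over all genes by edgeR's quasi-likelihood test). The study's qPCR also gave higher Kl in FL1 in estrus. It used more animals per group, which the study does not describe as separate from those sequenced. In diestrus the ratio was 3.32 with an interval of 1.64 to 6.74, and it did not pass the threshold of 0.05 (log2FC 1.73, SE 0.48, adjusted p = 0.0580, edgeR). Over both stages, with the stage as a term, Kl was 3.15-fold higher in FL1 (log2FC 1.66, SE 0.30, adjusted p = 0.0010, edgeR). The interaction of line and stage was not called (log2FC -0.16, 95% interval -1.42 to 1.10, adjusted p = 0.948, edgeR), and its value rested on ctrl diestrus replicate 1, without which it was -0.87 (adjusted p = 0.602). The call in estrus was lost when FL1 replicate 3 was left out (log2FC 1.38, adjusted p = 0.0564) or FL1 replicate 5 (log2FC 1.48, adjusted p = 0.0626), and in diestrus leaving out ctrl replicate 1, the high library, gave a log2FC of 2.45 and an adjusted p of 0.00428. The diestrus value passed the threshold in 5 of 7 other fits, whereas the value over both stages was called in all 20 fits that left out 1 library. In order of mean level, FL1 in estrus (10.9 ± 4.35 CPM, SD, n = 5) was followed by FL1 in diestrus (9.48 ± 3.22), ctrl in estrus (3.59 ± 1.24) and ctrl in diestrus (2.71 ± 2.42). Neighbours of the same line could not be told apart, with an adjusted p of 0.676 between the stages in FL1 and of 0.815 in ctrl (edgeR), where the log2FC of estrus over diestrus was 0.37 with all libraries and 1.07 without ctrl diestrus replicate 1. Ctrl in diestrus was the most variable group, with a coefficient of variation of 89.3% against 34.0% to 40.1% in the other 3.

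**Figure D1:**
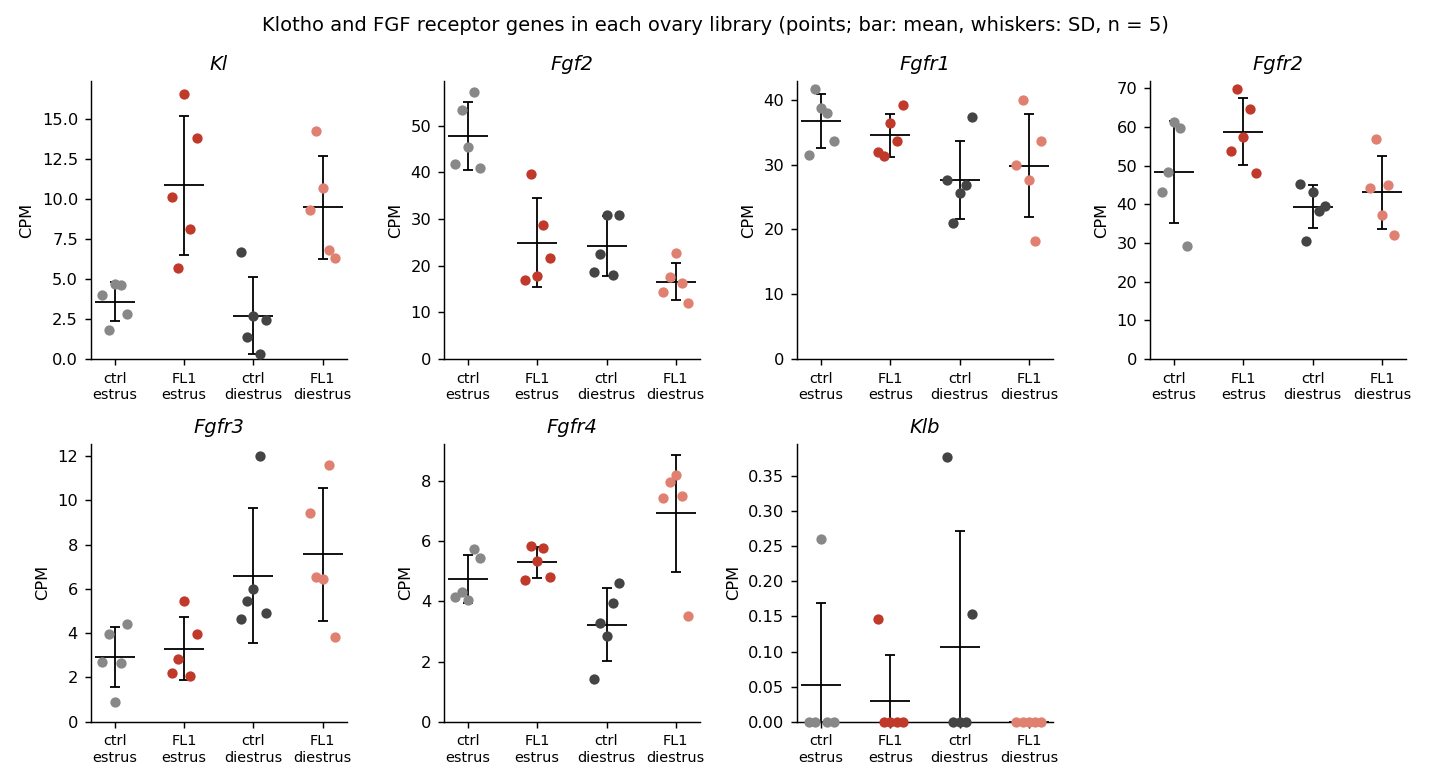
Level of each of the 7 genes in every ovary library, in CPM on the y axis of its own panel, for the 4 groups on the x axis. Points are libraries, long bars the means and whiskers the SD of 5 libraries. Kl lay between 5.70 and 16.6 CPM in FL1 estrus and between 1.82 and 4.69 CPM in ctrl estrus, Fgf2 showed the opposite order, and Klb was at 0 in 16 libraries.

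Klb encodes beta-Klotho, the co-receptor for the liver and gut hormones FGF21 and FGF15, and lies on chromosome 5 at 65348314 to 65384007 (plus strand). It had 8 counts in all. Ctrl in estrus had 2 counts in replicate 3, FL1 in estrus 1 count in replicate 1, and ctrl in diestrus 4 counts in replicate 1 and 1 count in replicate 5. The remaining 16 libraries, all 5 of FL1 in diestrus among them, had none. With 3 counts taken as the limit that a count of 0 allows, which is 0.290 to 0.501 CPM before the TMM factors (counting error only), Klb transcripts were at or under what this depth can detect in all libraries but 1, and the gene was too low to be tested.

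Fgfr1, on chromosome 8 at 25513654 to 25575718 (plus strand), encodes the receptor that binds FGF2 with high affinity and that partners Klotho in the reception of FGF23. In estrus it was at 31.5, 41.7, 38.7, 38.02 and 33.6 CPM in ctrl and at 31.9, 31.3, 36.5, 33.6 and 39.1 CPM in FL1. In diestrus it was at 27.5, 20.9, 25.7, 26.8 and 37.3 CPM in ctrl and at 29.9, 39.9, 27.5, 18.3 and 33.6 CPM in FL1. The lines overlapped almost fully in both stages. The ratio of FL1 to ctrl over both stages was 1.01 with a 95% interval of 0.853 to 1.19 (log2FC 0.01, SE 0.12, adjusted p = 0.978, edgeR). The highest mean, 36.7 ± 4.12 CPM (SD, n = 5) in ctrl in estrus, and the lowest, 27.7 ± 5.99 CPM in ctrl in diestrus, differed by a log2FC of 0.41 that did not pass the threshold (adjusted p = 0.199, edgeR).

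Fgfr2, of which a splice form that 3' reads cannot single out receives FGF7 and FGF10, lies on the minus strand of chromosome 7 at 130162451 to 133123350. In estrus it was at 43.3, 48.5, 61.3, 59.8 and 29.2 CPM in ctrl and at 53.9, 69.9, 57.5, 64.6 and 48.0 CPM in FL1. In diestrus it was at 45.2, 30.6, 43.1, 38.3 and 39.6 CPM in ctrl and at 44.4, 57.0, 37.3, 45.0 and 32.0 CPM in FL1. The lines overlapped in each stage, and FL1 in estrus was the highest group with a mean of 58.8 ± 8.65 CPM (SD, n = 5). Over both stages the ratio of FL1 to ctrl was 1.15, with an interval of 0.968 to 1.37 (adjusted p = 0.386, edgeR). Its annotated span reaches into an exon of Ctbp2 on the same strand, and Ctbp2 itself had a log2FC of -0.02 between the lines in estrus and of 0.02 in diestrus (adjusted p = 0.965 and 0.966, edgeR).

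Fgfr3, on chromosome 5 at 33721674 to 33737068 (plus strand), was a low transcript with 7 to 82 counts per library. In estrus it was at 2.68, 3.97, 0.913, 2.63 and 4.40 CPM in ctrl and at 2.20, 2.85, 5.45, 2.07 and 3.95 CPM in FL1. In diestrus it was at 4.62, 5.47, 6.01, 12.0 and 4.92 CPM in ctrl and at 9.45, 6.54, 6.45, 11.6 and 3.83 CPM in FL1. The lines overlapped in both stages, with ratios of FL1 to ctrl of 1.16 in each (adjusted p = 0.853 and 0.798, edgeR), and intervals of 0.631 to 2.13 in estrus and 0.714 to 1.89 in diestrus. The stages, in contrast, separated it, as described below.

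Fgfr4, on chromosome 13 at 55152640 to 55168759 (plus strand), encodes the receptor that pairs with beta-Klotho in liver. In estrus it was at 4.15, 4.30, 4.04, 5.74 and 5.45 CPM in ctrl and at 4.70, 5.85, 5.34, 5.76 and 4.81 CPM in FL1, which overlapped. In diestrus it was at 1.41, 3.28, 2.85, 3.95 and 4.61 CPM in ctrl and at 7.44, 7.98, 8.19, 7.502 and 3.50 CPM in FL1. Of the FL1 ovaries in diestrus, 4 were above all ctrl ovaries, and the other, replicate 5, lay within the ctrl range. The ratio of FL1 to ctrl in diestrus was 2.18 (95% interval 1.34 to 3.56, log2FC 1.13, SE 0.33, adjusted p = 0.0749, edgeR), which did not pass the threshold. Without FL1 replicate 5 the log2FC was 1.29 with an adjusted p of 0.0415, and the value passed in 3 of 8 other fits. In estrus the ratio was 1.11 (0.794 to 1.56, adjusted p = 0.802, edgeR), and the difference between the stages in the line effect had an unadjusted p of 0.0204 and an adjusted p of 0.319 (interaction log2FC -0.97, SE 0.39, edgeR). The order of the groups by mean was FL1 in diestrus (6.92 ± 1.94 CPM, SD, n = 5), FL1 in estrus (5.29 ± 0.527), ctrl in estrus (4.74 ± 0.795) and ctrl in diestrus (3.22 ± 1.21), and no pair of neighbours that was tested differed beyond the spread.

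Fgf2 encodes basic FGF, a ligand for FGFR1 and for some forms of the other receptors that needs no Klotho, and lies on chromosome 3 at 37348346 to 37410108 (plus strand). In estrus, ctrl libraries gave 41.8, 53.3, 45.5, 57.3 and 41.0 CPM and FL1 libraries 17.0, 39.7, 17.8, 28.6 and 21.6 CPM. All 5 FL1 ovaries were below all 5 ctrl ovaries, although FL1 replicate 2 came close to the lowest ctrl library. In diestrus, ctrl libraries gave 18.7, 22.6, 30.9, 18.1 and 30.9 CPM and FL1 libraries 14.3, 17.7, 22.7, 16.3 and 12.0 CPM. The groups overlapped in diestrus, with 4 of the 5 FL1 libraries below every ctrl library.

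In estrus, Fgf2 was 1.92-fold lower in FL1 than in ctrl (log2FC -0.94, SE 0.21, adjusted p = 0.0318, edgeR). In diestrus it was 1.46-fold lower, which did not pass the threshold (log2FC -0.54, SE 0.20, adjusted p = 0.158, edgeR). Over both stages it was 1.68-fold lower in FL1 (log2FC -0.75, SE 0.16, adjusted p = 0.0035, edgeR), and the interaction with the stage was not called (log2FC -0.40, 95% interval -1.04 to 0.24, adjusted p = 0.644). The call in estrus depended on single libraries. It was lost without ctrl replicate 2, 3 or 4 or FL1 replicate 1, 3, 4 or 5, with adjusted p between 0.0514 and 0.0874, while all 8 other fits and all 20 fits over both stages without 1 library kept it. The mean was highest in ctrl in estrus (47.8 ± 7.22 CPM, SD, n = 5), close together in FL1 in estrus (25.0 ± 9.45) and in ctrl in diestrus (24.2 ± 6.34), and lowest for FL1 in diestrus (16.6 ± 4.02). FL1 ovaries in estrus thus held about the Fgf2 level of ctrl ovaries in diestrus, a pair that was not tested against each other. Fgf2 shares exonic sequence with Nudt6 on the opposite strand and with Gm43439 on its own strand. Nudt6 was at 6.38 ± 2.05 CPM in ctrl and 9.59 ± 1.40 CPM in FL1 in estrus, and its log2FC of 0.57 was not called (adjusted p = 0.254, edgeR). Gm43439 had no count in any library, and since the strand setting of the counting was not stated in the sources used here, the part of Nudt6 reads in the Fgf2 values was not tested.

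Read against all genes, 2 of the 6 genes tested were called between the lines in estrus, where 2.33% of 13374 genes were called, and the same 2 were free of overlap between the lines, as were 4.89% of all genes. In diestrus none of the 6 was called, against 4.11% of 13259 genes, although Kl, Fgfr4 and Fgf2 had an unadjusted p under 0.05. DESeq2 called 2 of them there and limma-voom 1, and none was free of overlap, as 5.45% of all genes were. Over both stages 2 of 6 were called, against 6.74% of 14154 genes. No gene of the 6 was called for the interaction by edgeR, DESeq2 or limma-voom, 1 had an unadjusted p under 0.05, and 0.0565% of all genes were called. Both comparisons within a stage share their libraries with the fit over both stages, which is therefore no separate evidence.

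**Figure D2:**
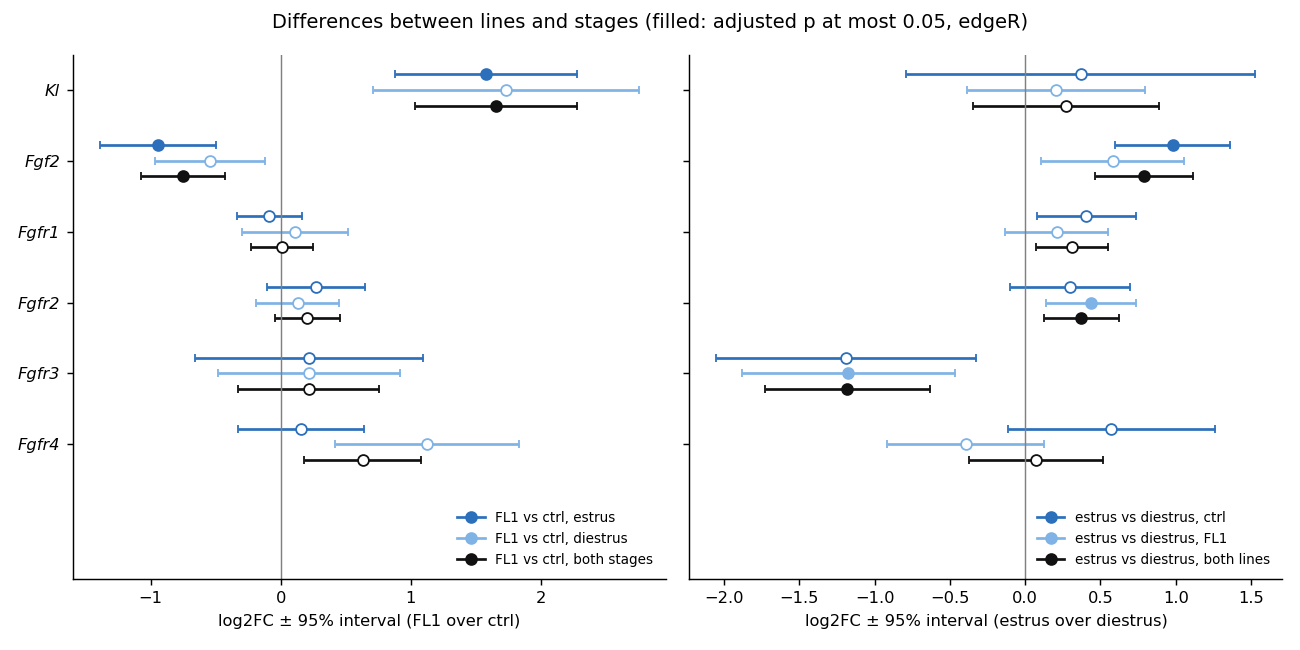
Estimated log2FC with its 95% interval on the x axis for the 6 tested genes, FL1 over ctrl on the left and estrus over diestrus on the right. Filled points have an adjusted p of at most 0.05 in edgeR. Kl was to the right of 0 and Fgf2 to the left of 0 in all 3 line comparisons, and Fgfr3 was near -1.18 in all 3 stage comparisons.

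Between the stages, Fgf2 and Fgfr3 moved in opposite directions. In ctrl, Fgf2 was 1.97-fold higher in estrus than in diestrus, with all 5 estrus libraries above all 5 diestrus libraries (log2FC 0.98, SE 0.18, adjusted p = 0.0106, edgeR), and this call held in all 10 fits that left out 1 library. In FL1 the Fgf2 difference was 1.496-fold and was not called (log2FC 0.58, SE 0.23, adjusted p = 0.0910). Leaving out FL1 replicate 1 or 3 of estrus gave it an adjusted p of 0.0476 or 0.0484. Over both lines it was 1.73-fold higher in estrus (log2FC 0.79, SE 0.16, adjusted p = 0.0011, edgeR).

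Fgfr3 was 2.27-fold lower in estrus than in diestrus over both lines (log2FC -1.18, SE 0.26, adjusted p = 0.0032, edgeR), called in all 20 fits without 1 library. Within FL1 the ratio was 2.26 (log2FC -1.18, SE 0.33, adjusted p = 0.0248), and the call was lost without FL1 replicate 1, 2 or 4 of estrus or replicate 1 or 4 of diestrus, with adjusted p of 0.0537 to 0.0821. Within ctrl it was 2.28-fold lower, and although the 2 stages did not overlap, the difference was not called (log2FC -1.19, SE 0.40, adjusted p = 0.145). The highest ctrl library in diestrus, replicate 4, was at 12.0 CPM while the other 4 lay between 4.62 and 6.01 CPM.

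Fgfr2 was 1.36-fold higher in estrus in FL1 (log2FC 0.44, SE 0.14, adjusted p = 0.0443) and 1.29-fold higher over both lines (log2FC 0.37, SE 0.12, adjusted p = 0.0397, edgeR). These calls lay close to the threshold: the first was lost in 7 of 10 fits without 1 library (FL1 replicate 2, 3 or 4 of estrus and 1, 3, 4 or 5 of diestrus, adjusted p 0.0543 to 0.112) and the second in 12 of 20, where the adjusted p reached 0.0805. Fgfr1 was 1.24-fold higher in estrus over both lines without passing the threshold (adjusted p = 0.0760, edgeR), and it passed without ctrl diestrus replicate 5 (adjusted p = 0.0389) or FL1 diestrus replicate 2 (adjusted p = 0.0281). Kl and Fgfr4 did not differ measurably, with ratios of estrus to diestrus of 1.21 (0.787 to 1.85) and 1.05 (0.771 to 1.43) over both lines. In all, 1 of 6 was called in ctrl against 2.85% of 13334 genes, 2 of 6 in FL1 against 15.9% of 13350 genes, and 3 of 6 over both lines against 14.8% of 14154 genes. Fgf2 and Fgfr3 were free of overlap between the stages in ctrl, as were 4.52% of all genes, and no gene of the 6 was in FL1, where 12.2% of all genes were. The comparisons of stages and of lines were made on the same libraries, so that a high ctrl estrus group enters both the line and the stage difference of Fgf2.

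Several cell type markers were called between the stages over both lines, where 14.8% of all genes were called. Cyp17a1, the theca enzyme of androgen synthesis, had a log2FC of -4.42 in estrus over both lines. It was the only call among the 3 theca and interstitial markers tested, whose median log2FC was 0.13. All 5 luteal markers (Star, Lhcgr, Ptgfr, Cyp11a1 and Prlr) were lower in estrus and all 4 smooth muscle markers (Acta2, Myh11, Cnn1 and Des) higher. The luteal markers summed to 7919 to 21332 CPM in ctrl and 6865 to 15062 CPM in FL1 in estrus, and to 12654 to 23418 CPM and 19890 to 25730 CPM in diestrus. The smooth muscle markers summed to 1068 to 1469 CPM and 1109 to 1412 CPM in estrus, and to 667 to 1208 CPM and 762 to 1268 CPM in diestrus. All 4 blood markers (Hba-a1, Hbb-bs, Hbb-bt and Alas2) were lower in estrus, with sums of 766 to 1589 CPM in ctrl and 869 to 1665 CPM in FL1, against 432 to 2810.0 CPM and 1207 to 3275 CPM in diestrus. Of the 4 endothelial markers, Cdh5, Kdr and Pecam1 were lower in estrus, and the list summed to 232 to 404 CPM in ctrl and 194 to 261.7 CPM in FL1, against 261.3 to 387 CPM and 302 to 392.3 CPM in diestrus. Of 5 granulosa markers tested, Cyp19a1 and Fshr were lower in estrus over both lines. Krt19 of the surface epithelium and Cd68 of macrophages were higher, each the only call of its list. Within ctrl, 1 luteal and 1 smooth muscle marker were called and no blood or endothelial marker, against 2.85% of all genes. Within FL1, 5 luteal, 2 smooth muscle, 4 blood and 3 endothelial markers were called, against 15.9%. No marker of the 11 cell types was at 0 in all 20 libraries. The part of these shifts in the values of Fgf2, Fgfr2 and Fgfr3 was not tested. In whole ovary, fewer cells of a type and less RNA per cell cannot be told apart.

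Between the lines, no marker was called in estrus, where 2.33% of all genes were called and where Kl and Fgf2 differed. In that comparison, 3 of 5 surface epithelium markers (median log2FC 0.65) and 2 of 4 endothelial markers (-0.37) had an unadjusted p under 0.05 (edgeR). So had 2 of 4 macrophage markers (median -0.03) and 1 of 5 luteal markers (median -0.35). In diestrus, 4 markers were called, where 4.11% of all genes were. Lhcgr, the LH receptor (log2FC 1.43), Foxl2, a granulosa transcription factor (log2FC 0.53), and Cd68, of macrophages (log2FC 0.79), were higher in FL1, and Upk1b, of the surface epithelium (log2FC -2.33), was lower. Each was the only call of its list, of 5 luteal, 5 granulosa, 4 macrophage and 5 surface epithelium markers tested. The median log2FC of these lists was 0.25, 0.0018, 0.08 and -0.23. For Foxl2 in diestrus, the study's qPCR gave a log2FC of the opposite sign, and for Lhcgr in diestrus one of the same sign. Over both stages, where 6.74% of all genes were called, Lhcgr (log2FC 0.99) and Cd68 (log2FC 0.59) were higher and Csf1r, the other macrophage marker called (log2FC -0.57), was lower. All 4 macrophage markers had an unadjusted p under 0.05 there (edgeR), with a median log2FC of 0.03. Lhcgr was the only call of 5 luteal markers, whose median was -0.05. The summed level of each marker list overlapped between the lines in both stages, except that of the oviduct epithelium in estrus, which was between 0.130 and 1.82 CPM in ctrl and between 2.36 and 5.25 CPM in FL1. Sntn of that list was at 0 in ctrl in estrus, and Lep, of fat, in FL1 in estrus. Insl3, of the theca and interstitial list, was at 0 in FL1 in both stages and had counts in ctrl in both. The surface epithelium list summed to 46.3 to 58.4 CPM in ctrl and 56.5 to 109.8 CPM in FL1 in estrus. By the study's methods, surrounding fat was cleaned off and the oviduct and the tunica albuginea were taken away before the ovaries were used. Their part in the Kl and Fgf2 differences was not tested.

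Other genes of FGF signalling were taken from 5 lists of 104 genes in all. Of the 21 other FGF ligands listed, 13 had at least 1 count and 8 had none in any library, among them the endocrine ligands Fgf15, Fgf21 and Fgf23, whose reception depends on the Klotho proteins, and Fgf3, Fgf4, Fgf6, Fgf17 and Fgf20. A count of 0 allows up to 3 counts in a library, and these hormones are made mainly in bone, gut and liver. The 5 other ligands with the highest mean level were Fgf11 (mean 4.78 CPM over the 20 libraries), Fgf13 (3.78), Fgf1 (3.58), Fgf8 (2.71) and Fgf18 (2.31), of which Fgf11 and Fgf13 encode intracellular homologues that are not secreted. No ligand was called between the lines, of 6 tested in estrus, 5 in diestrus and 6 over both stages. Of all genes, 2.33%, 4.11% and 6.74% were called there. In estrus 2 of the ligands had an unadjusted p under 0.05 (edgeR), and none had in diestrus or over both stages. Fgf13 was lower in estrus than in diestrus in ctrl (1.64 ± 0.508 against 5.08 ± 1.81 CPM, SD, n = 5, log2FC -1.63, adjusted p = 0.0229, edgeR).

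The longest list held FGF co-receptors, binding proteins and the genes of heparan sulfate, whose proteoglycans hold FGF2 outside the cell and present it to its receptors. Of its 24 genes tested over both stages, 4 were lower in FL1, 1 was higher and 19 were not called, a share of 20.8% against 6.74% of all genes, and the median log2FC of the list was -0.07 against -0.0043 of all genes. Hspg2, which encodes perlecan, a basement membrane proteoglycan that binds FGF2, was at 113 ± 21.5 CPM in ctrl and 70.0 ± 15.4 CPM in FL1 in estrus and at 91.7 ± 19.1 and 59.2 ± 8.79 CPM in diestrus (SD, n = 5). It was called in estrus (log2FC -0.69, adjusted p = 0.0401), in diestrus (log2FC -0.63, adjusted p = 0.0207) and over both stages (log2FC -0.66, adjusted p = 0.00046, edgeR). The cell surface proteoglycans Gpc1 (log2FC -0.67), Gpc6 (log2FC -0.83) and Sdc3 (log2FC -0.56) were lower over both stages, and Gpc1 was also lower in diestrus alone (log2FC -0.72, adjusted p = 0.0301). Ext1, an enzyme that builds the heparan sulfate chain, was higher in FL1 over both stages (log2FC 0.33, adjusted p = 0.0080) and in estrus, where it was at 183 ± 19.3 CPM in ctrl and 269.55 ± 20.4 CPM in FL1 (log2FC 0.56, adjusted p = 0.0084, edgeR). The fibronectin leucine rich transmembrane protein Flrt1 was higher in diestrus (log2FC 0.59). Between the stages over both lines, Ext2, Flrt2, Gpc1, Hs6st2 and Sulf2 were higher in estrus and Ext1 was lower, 25.0% of the list against 14.8% of all genes. Within ctrl Ext1 was the only call of the list (log2FC -0.67), 4.17% against 2.85% of all genes. Within FL1 the calls were Gpc1 (log2FC 0.72) and Sulf2 (log2FC 0.43), 8.33% against 15.9% of all genes.

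**Figure D3:**
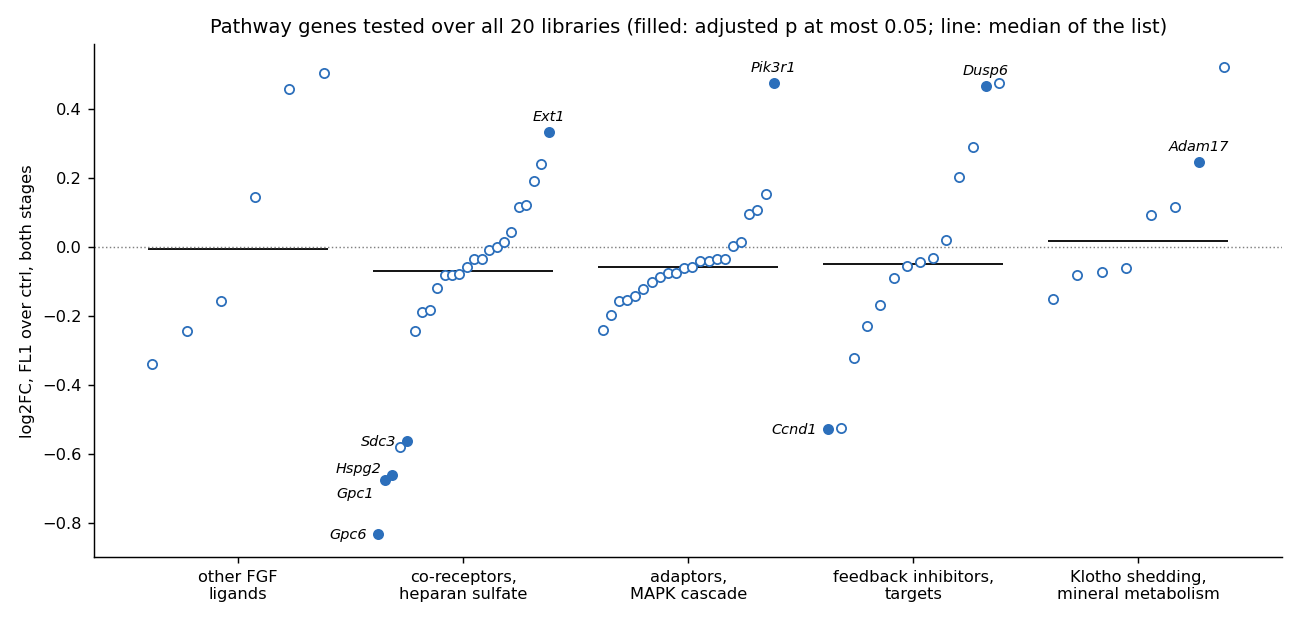
Difference between FL1 and ctrl over both stages (log2FC on the y axis) for every tested gene of the 5 pathway lists on the x axis, sorted within each list. Filled and named points have an adjusted p of at most 0.05 in edgeR and black lines are the list medians, which lay between -0.07 and 0.02. The named points of the list of co-receptors, binding proteins and heparan sulfate were lower in FL1, apart from Ext1.

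In the cascade below the receptors, 22 adaptor and MAPK genes were tested. None was called between the lines in estrus, where 2.33% of all genes were and 4 of the list had an unadjusted p under 0.05. The list had 1 call in diestrus and 1 over both stages, 4.55% each, against 4.11% and 6.74% of all genes. Pik3r1, the regulatory subunit of PI3-kinase, was higher over both stages (log2FC 0.48, adjusted p = 0.0311, edgeR). Between the stages in FL1, 5 genes were called, all lower in estrus, 22.7% of the list against 15.9% of all genes. Among them were Mapk3, Pik3r1, Sos1 and Sos2, with log2FC of -0.42, -0.46, -0.44 and -0.37. No gene of the list was called in ctrl, against 2.85% of all genes, and 3 had an unadjusted p under 0.05. Over both lines 4 genes of the list were called, 18.2% against 14.8% of all genes. Among them Araf and Pik3r1 were lower and Shc1 was higher in estrus.

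Of 14 feedback inhibitors and target genes of FGF signalling, Dusp6, a phosphatase that is induced by and acts on ERK, was higher in FL1 in diestrus (52.1 ± 10.2 CPM in ctrl and 77.2 ± 13.3 CPM in FL1, SD, n = 5, log2FC 0.56, adjusted p = 0.0446) and over both stages (log2FC 0.47, adjusted p = 0.0070). Ccnd1, which encodes cyclin D1, was lower in FL1 over both stages (log2FC -0.53, adjusted p = 0.0094, edgeR), so that 2 genes were called in opposite directions, 14.3% of the list against 6.74% of all genes. None of the 14 was called in estrus, against 2.33% of all genes, and 2 had an unadjusted p under 0.05. The immediate early genes Egr1 (log2FC -0.55) and Fos (log2FC -0.95) were lower in estrus than in diestrus over both lines, and Egr1 also in FL1 alone (log2FC -0.74).

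The last list held genes of Klotho shedding and mineral metabolism, of which 8 were tested. Adam17, a protease that can release the Klotho ectodomain, was higher in FL1 in diestrus (72.8 ± 9.74 CPM in ctrl and 94.2 ± 4.63 CPM in FL1, SD, n = 5, log2FC 0.37, adjusted p = 0.0437) and over both stages (log2FC 0.25, adjusted p = 0.0423), and in diestrus the highest ctrl library was below the lowest FL1 library. Slc20a1, a phosphate transporter, was at 50.9 ± 15.5 CPM in ctrl and 104 ± 18.7 CPM in FL1 in diestrus (log2FC 1.02, adjusted p = 0.0070, edgeR), with every FL1 library (89.4 to 136 CPM) above every ctrl library (32.4 to 64.2 CPM). In estrus it was at 42.5 ± 10.1 and 42.2 ± 11.1 CPM. Vdr, the vitamin D receptor, was higher in estrus than in diestrus over both lines (log2FC 0.90, adjusted p = 0.0018), and in FL1 alone (log2FC 0.78). Slc20a1 was lower in estrus over both lines (log2FC -0.79) and in FL1 (log2FC -1.30), and Bace1, another sheddase, was lower in FL1 (log2FC -0.45). None of the 8 was called between the lines in estrus, where none had an unadjusted p under 0.05. No gene of the 5 lists was called for the interaction, where 11 had an unadjusted p under 0.05 and DESeq2 called 2. In all, 2 of 74 list genes were called between the lines in estrus, 7 of 73 in diestrus and 9 of 74 over both stages, which is 2.70%, 9.59% and 12.2% against 2.33%, 4.11% and 6.74% of all genes. The 7 calls in diestrus became 1 to 6 when any 1 library was left out and 11 with DESeq2. Among the 7, Hspg2 and Slc20a1 had already been listed by the study from these same libraries. The lists were also chosen with earlier results of these data known. These calls and shares are therefore no independent evidence.

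Among the 6 tested genes, Pearson's r of log2 CPM (prior count 2) over the 20 libraries, which share their group structure, lay between -0.55 for Fgfr3 with Fgf2 and 0.44 for Kl with Fgfr2. After the 4 group means were subtracted, the same pairs were at -0.13 and 0.27, and Kl with Fgf2 was at -0.04 where it had been -0.33. The highest values within groups were 0.48 for Fgfr4 with Fgf2, 0.41 for Fgfr3 with Fgfr4 and 0.40 for Fgfr2 with Fgf2, and Kl with Fgfr4 went from 0.38 to -0.33. These are descriptions over 20 libraries with no test.

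The genes most like each tested gene were sought among the 14153 other genes tested over all libraries. For Kl these were Dcaf8 (r = 0.90, and 0.86 after the group means were subtracted), 4930502E18Rik (0.83 and 0.71), S100a11 (0.83 and 0.51), Skint5 (0.81 and 0.55) and 6430562O15Rik (0.80 and 0.33). Dcaf8 followed Kl within the groups but spanned only 7.18 to 7.62 on the log2 CPM scale and was not called between the lines (log2FC 0.14 over both stages, adjusted p = 0.121, edgeR). Skint5 and 6430562O15Rik were alike in another way, since they were rarely counted in ctrl. Skint5 had no count in any ctrl library of estrus and 6430562O15Rik none in any ctrl library of diestrus, and both had counts in all 10 FL1 libraries. S100a11, a calcium-binding protein, was higher in FL1 over both stages (log2FC 1.24, adjusted p = 2.95e-06, edgeR).

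**Figure D4:**
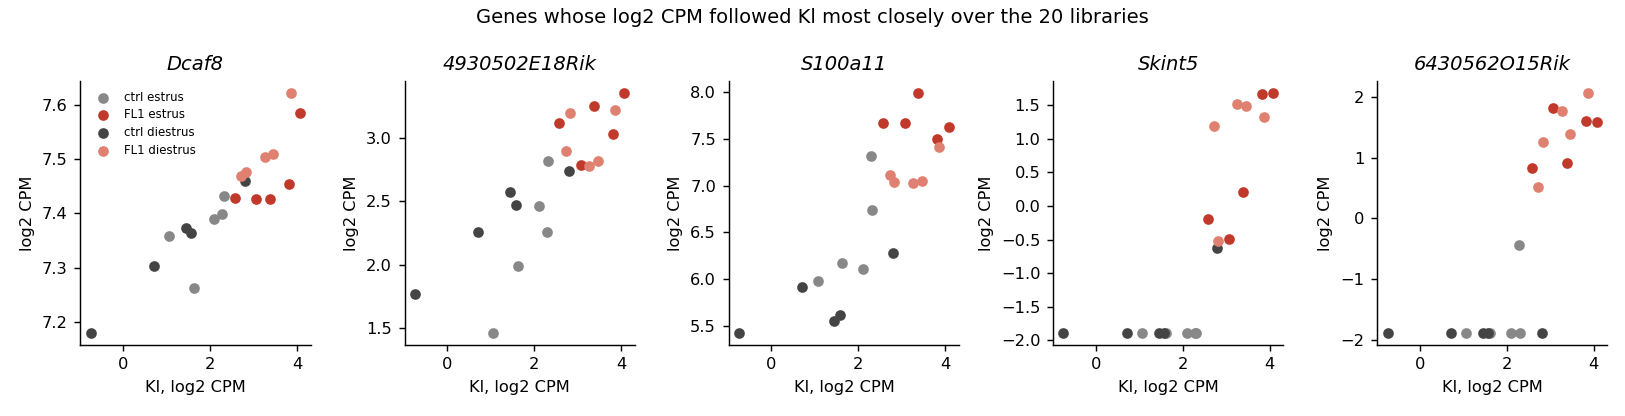
Log2 CPM of the 5 genes most like Kl (y axes) against log2 CPM of Kl (x axes) in the 20 libraries, coloured by group. Points at -1.89 are libraries with 0 counts. Dcaf8 rose with Kl within the groups (r = 0.86 after subtracting group means), whereas 6430562O15Rik mainly split the lines (0.33).

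Fgf2 was followed most closely by Copb2 (r = 0.90, within groups 0.76), a coat protein of Golgi vesicles, by Arhgef19 (0.88 and 0.58) and by Mfap2 (0.86 and 0.37), a microfibril protein. Both Arhgef19 (log2FC -0.78) and Mfap2 (log2FC -0.51) were lower in FL1 over both stages and higher in estrus over both lines (log2FC 0.90 and 0.63), the pattern of Fgf2 itself. Fgfr3 was followed by Epdr1 (0.87 and 0.74), Hist1h4i (0.86 and 0.72) and 5330417C22Rik (0.86 and 0.69), all lower in estrus over both lines with log2FC of -1.25, -1.26 and -2.73. The nearest genes were Bicc1 (0.80 and 0.75), Hivep3 (0.79 and 0.75) and Slc25a27 (0.77 and 0.73) for Fgfr1, C77080 (0.83 and 0.74), Tspan6 (0.80 and 0.65) and Gm5907 (0.79 and 0.82) for Fgfr2, and Gm42528 (0.82 and 0.59), Sorbs2 (0.76 and 0.48) and Gimap9 (0.74 and 0.57) for Fgfr4. By Spearman's rho, 9 of these 20 genes were among the nearest as well. All r are descriptions over the same 20 libraries, which also share depth and composition, and carry no p. The like genes were picked by r with the group differences included. Line or stage differences that they share with Kl, Fgf2 or Fgfr3 therefore follow in part from that choice.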

How the data were processed

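The ovary libraries were made with a 3' mRNA-Seq kit, and by the study's methods the reads were trimmed, aligned with STAR to GRCm38 and counted per Ensembl gene. The authors deposited the unnormalized count of each gene, with a separate table for every library. The counting tool, its strand setting and molecular identifiers are not given in the sources used here. Line, stage and replicate came from the sample titles and characteristics, because the source name field says FL1 even for ctrl ovaries. Identifiers matched GENCODE M21 for 54809 of 54838 genes and 160 of 161 listed symbols.

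Counts were tested over the whole table with edgeR 4.0.16 (quasi-likelihood, R 4.3.3, TMM, filterByExpr with a minimum count of 10, Benjamini-Hochberg, called at an adjusted p of at most 0.05), in the 10 libraries of each stage and of each line, and over all 20 libraries with both terms and with their interaction. The SE of a log2FC is its absolute value over the square root of the F statistic. The script was tested on simulated data. Replicates differed by more than sampling noise (chi-square per gene 6.32 to 46.6 over 40 pairs), and same-numbered libraries, which are different animals, did not deviate together (r between -0.10 and 0.13 over 20 pairs) and were not paired.

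Named were all 7 genes, list genes called in any of 7 comparisons, the 5 other ligands with the highest mean CPM, and the 3 genes (5 for Kl) with the highest Pearson r. Some list genes that met this rule are not reported here. The 7 genes, the 5 pathway lists, the 11 marker lists and the tests were chosen with earlier results of these data known. Alternatives were RLE factors, total counts, DESeq2 1.42.0, limma-voom (limma 3.58.1), 2 other filters on low counts (1 or more over the fit, or 10 or more per library), a joint fit of the 4 groups, a replicate block and leaving out single libraries.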

Additional observations from a re-analysis of the deposited data

Results flagged for a closer look

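In 4 of 27 sets of 5 libraries, 1 library stood apart from the other 4 by more than Dixon's critical value of 0.71 of the range, which chance does in about 1 in 20 sets. That rate does not hold for the 2 Klb sets among them, where 1 library had counts and the others none, so that the gap fills the whole range. Fgfr4 was at 3.50 CPM in FL1 diestrus replicate 5, while the other libraries of that group lay between 7.44 and 8.19 CPM. Fgfr3 was at 12.0 CPM in ctrl diestrus replicate 4, while the others lay between 4.62 and 6.01 CPM. Klb was at 0.261 CPM in ctrl estrus replicate 3, from 2 counts, and at 0.147 CPM in FL1 estrus replicate 1, from 1 count, with no count in the others of each group.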

How the results depend on the processing

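No difference of Kl, Klb, Fgf2 or an FGF receptor that was called changed its direction under an alternative. Of 908 repeated values of these genes, 36 lost and 17 gained a call. Another 853 were the same, either called again or uncalled again with a log2FC within the SE of the first. The other 2 stayed uncalled but moved by more than that SE. Both were Kl without ctrl diestrus replicate 1, where its stage log2FC in ctrl went from 0.37 to 1.07 and its interaction from -0.16 to -0.87. Of 1042 repeated values of called pathway genes, 181 lost the call. In diestrus, where edgeR called none of the 6 genes between the lines, DESeq2, the filter of at least 1 count in total and 1 fit of all 20 libraries called 2 each (Kl and Fgfr4), limma-voom called 1, and the number was 0 to 1 with 1 library left out. In estrus it was 0 to 2 without 1 library. Between the stages in FL1, 1 gene was called by limma-voom and 1 by the fit of all 20 libraries instead of 2, and 0 to 2 without 1 library, and over both stages 1 gene instead of 2 was called between the lines under at least 10 counts in every library, which drops Kl from the test.

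Over all genes, 311 calls between the lines in estrus became 671 with DESeq2, 477 with at least 1 count in total, 531 in 1 fit of all libraries and 175 to 418 without 1 library. In diestrus 545 became 894 with DESeq2, 846 with at least 1 count in total and 349 to 594 without 1 library. Between the stages in ctrl 380 became 768 with DESeq2, 909 in 1 fit and 176 to 516 without 1 library, and the 8 interaction calls became 152, 3 with limma-voom, 17 with at least 1 count and 0 to 15 without 1 library. Total counts without factors raised the share of higher calls in estrus from 62.6% to 72.8% in ctrl, from 46.6% to 62.4% in FL1 and from 52.2% to 67.0% over both lines. By Spearman's rho, 9 of the 20 genes named as most alike stayed. The causes of these shifts were not tested, apart from the gene dropped by the filter.

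With the replicate number as a replicate block, 1 gene was called between the lines in diestrus (Kl, log2FC 2.00, adjusted p = 0.0422) and 1 between the stages in FL1, where Fgfr3 lost its call (log2FC -1.16, adjusted p = 0.0589). The block changed no other call of these genes. Low counts limit Kl, Fgfr3 and Fgfr4, and Klb cannot be compared at this depth.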
